A study of Mus musculus with 6 samples.

Results

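The histone genes of the pharyngeal region were taken from RNA-seq of 3 *Pax9*-null and 3 wild-type mouse embryos. Of the 14647 genes with a deposited value, 72 had a symbol of a clustered histone gene (Hist1 to Hist4) or of a variant histone gene (H2af, H3f3 or H1f). The clustered genes numbered 59 and the variant genes 13. The family was chosen because the clustered gene *Hist1h4m* had already been seen to rise in the *Pax9*-null libraries, and *Hist1h4m* is therefore described here without a test and was left out of every count of clustered genes that were tested or called. This left 58 clustered genes, of which 6 encode H1, 13 H2A, 17 H2B, 10 H3 and 12 H4. Among the 13 variant genes, 10 were protein coding, and the others were the pseudogenes *H3f3a-ps1* and *H3f3a-ps2* and the antisense RNA *H3f3aos*.

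Both groups were E9.5 embryos. The mutants were homozygous for a *Pax9* null allele (Pax9-/-) in every cell and the controls carried wild-type *Pax9*, with each library made from 1 stage-matched embryo. The study's methods describe total RNA from the dissected pharyngeal region and strand-specific TruSeq libraries, whereas the sample labels name sorted cells and Smart-seq2 libraries. The description in the methods was followed. Whether polyadenylated RNA was selected or ribosomal RNA removed is not given in the sources used here. The genotype labels were checked on *Pax9*, which was at -0.43, -0.63 and -0.59 log2 RPKM in the *Pax9*-null libraries 1 to 3 and at 0.63, 0.71 and 0.96 in the wild-type libraries 1 to 3. The groups did not overlap for *Pax9*.

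Each value is a log2 RPKM, the base 2 logarithm of reads scaled to gene length and to the size of the library, so that a difference of 1 is a 2-fold change. Differences are *Pax9*-null minus wild-type and are given as log2 fold changes with the standard error (SE). They were tested with limma on the 13547 genes that averaged 0.5 RPKM or more. Genes with a Benjamini-Hochberg adjusted *P* of at most 0.1, the threshold of the study, were called. With 3 libraries against 3, exact permutation of 1 gene's values has a smallest *P* of 0.1, so every call draws on the variance estimated across genes. The reads behind the values were recovered from the log2 RPKM and came to between 11660829 and 12680406 per library.

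Histones package DNA into nucleosomes, with a core of H2A, H2B, H3 and H4 and with H1 on the linker DNA. The clustered genes are replication dependent. They are transcribed in S phase, lack introns as a rule, and give mRNAs that end in a conserved stem-loop in place of a poly(A) tail. The stem-loop is bound by SLBP and directs the cleavage that forms the mRNA end. The variant genes are expressed throughout the cell cycle, mostly give polyadenylated mRNAs, and supply histones such as H3.3 and H2A.Z outside replication. Cycling embryonic tissue is rich in the clustered mRNAs.

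The stem-loop was looked for in the annotated transcripts by a fixed pattern, with set bases in arms of 6 bases around a loop of any 4 bases. It was found in 39 of the 57 clustered genes with an annotated transcript (38 without *Hist1h4m*) and in 1 variant gene, *H2afx*, whose product marks DNA breaks when phosphorylated. A stem-loop with other bases in its arms, or past the end of an annotated transcript, could not be found. One sequence was shared by 19 genes for H1, H2A, H2B and H3, and another by 7 genes, all for H4 and with *Hist1h4m* among them. The stretches around the stem-loop are shown for the genes that the results turn on, with both arms of the stem in capitals and 5 flanking bases on each side (3 after that of *Hist1h4m*, whose annotated transcript ends there).
*Hist1h4m*: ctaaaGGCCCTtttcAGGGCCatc
*Hist1h4n*: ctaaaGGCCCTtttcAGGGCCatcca
*Hist1h4d*: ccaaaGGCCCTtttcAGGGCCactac
*Hist1h1e*: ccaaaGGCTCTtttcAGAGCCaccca
*Hist1h2bb*: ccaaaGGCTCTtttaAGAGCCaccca
*Hist1h3b*: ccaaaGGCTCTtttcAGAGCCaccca
*H2afx*: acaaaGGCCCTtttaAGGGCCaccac
The genes shown lie on chromosome 13 of GRCm38, except *H2afx* on chromosome 9. The H4 genes and *H2afx* had the same pair of arms, and the H1, H2B and H3 genes shown had the other. Annotated transcripts ran over 300 bases past the stem-loop in 16 clustered genes, among them *Hist1h1e* and *Hist1h4d*.

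The clustered genes were highly expressed, led by linker histones. On the per-length scale, the 8 clustered genes with the highest mean log2 RPKM were *Hist1h1a*, *Hist1h1b*, *Hist1h1d* and *Hist1h1e* for H1, *Hist1h2bm*, *Hist1h2bb* and *Hist1h2bn* for H2B, and *Hist1h4d* for H4. *Hist1h1a*, the highest of all, was at 10.91, 10.68 and 10.86 in the *Pax9*-null libraries and at 9.68, 10.51 and 10.26 in the wild-type libraries. The median of all tested genes was at 2.77 to 2.87 log2 RPKM, depending on the library. H2A genes were the lowest of the 5 kinds, with none above a mean of 5.45 log2 RPKM, whereas H4 genes lay between 5.33 and 9.42. In the annotation, 12 of the 13 clustered H2A genes were overlapped on the other strand by an annotated miRNA gene of 138 to 144 bases, and no other clustered gene was. None of these miRNA genes is in the table, and the part of the overlap in the H2A levels was not tested.

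All clustered genes together took 0.938%, 0.863% and 1.07% of the recovered reads in the *Pax9*-null libraries 1 to 3, and 0.334%, 0.824% and 0.64% in the wild-type libraries 1 to 3. The share in wild-type library 1 stood far below the other 5. The variant genes took 0.244% to 0.259% in the *Pax9*-null libraries and 0.204% to 0.255% in the wild-type libraries, so that their shares overlapped between the groups.

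**Figure D1:**
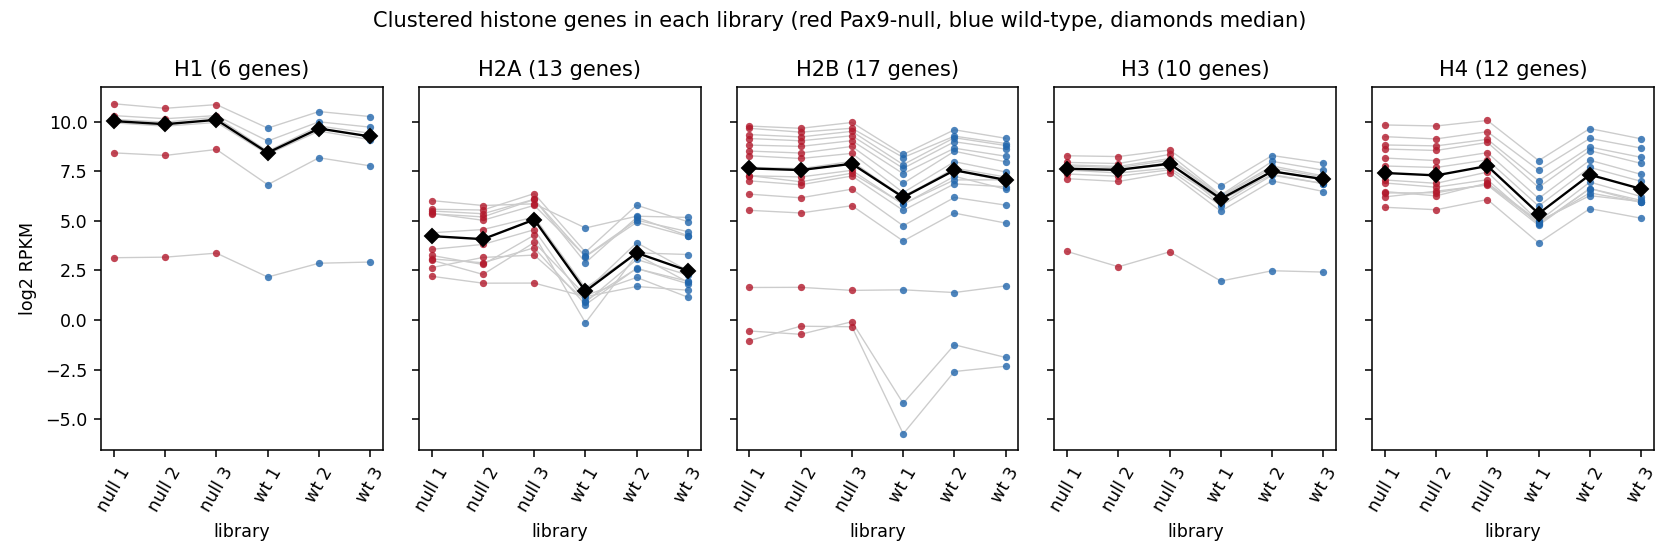
Log2 RPKM (vertical axis) of the 58 clustered genes other than *Hist1h4m* in each of the 6 libraries (horizontal axis), in a panel for each histone, with 1 point per gene, grey lines joining a gene's values, and black diamonds for the median over all genes of the panel. In each panel the median is lowest in wild-type library 1, while wild-type library 2 is close to the *Pax9*-null libraries except for H2A.

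Every tested clustered gene had a log2 fold change above 0, which 49.8% of all tested genes had, and many passed the test. Of the 56 clustered genes tested, 21 were called higher in the *Pax9*-null libraries and 0 lower, against 14.7% of all tested genes called higher and 12% called lower. At an unadjusted *P* under 0.05, 43 clustered genes were higher and 0 lower by limma. Their median log2 fold change was 0.82, beside -0.0012 for all tested genes. The values of the groups did not overlap for 33 of the 56 genes, all higher in the *Pax9*-null libraries, where 21.8% of all tested genes did so and 20.1% were lower without overlap.

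The size of the difference depended on 1 wild-type library. The median of the clustered genes was 7.32, 7.23 and 7.56 log2 RPKM in the *Pax9*-null libraries 1 to 3 and 5.80, 7.27 and 6.88 in the wild-type libraries 1 to 3. The median of wild-type library 2 was thus within the range of the *Pax9*-null libraries, and that of wild-type library 1 was far below it. Gene by gene, wild-type library 2 was at or above the lowest *Pax9*-null library for 22 of the 56. Of all 13547 tested genes, this held for 9242. Wild-type library 1 had the lowest value of the 6 for 54 of the 56 genes, against 29.5% of all tested genes. Between the wild-type libraries 2 and 1 the clustered genes differed by a median of 1.498, more than the median log2 fold change between the genotypes. Wild-type library 3 was below all 3 *Pax9*-null libraries for 54 of the 56 genes, against 4917 of all 13547 tested genes.

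Without wild-type library 1, 11 clustered genes were called higher and 0 lower, against 8.13% of all tested genes called higher. All 56 log2 fold changes stayed above 0, with a median of 0.43. Without *Pax9*-null library 1 no clustered gene was called (1.93% of all tested genes were called higher), and the same held without *Pax9*-null library 3 (1.13%). At an unadjusted *P* under 0.05, limma gave 13 and 10 clustered genes higher in these fits. Without wild-type library 2, 54 were called higher, against 14.8% of all tested genes.

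**Figure D2:**
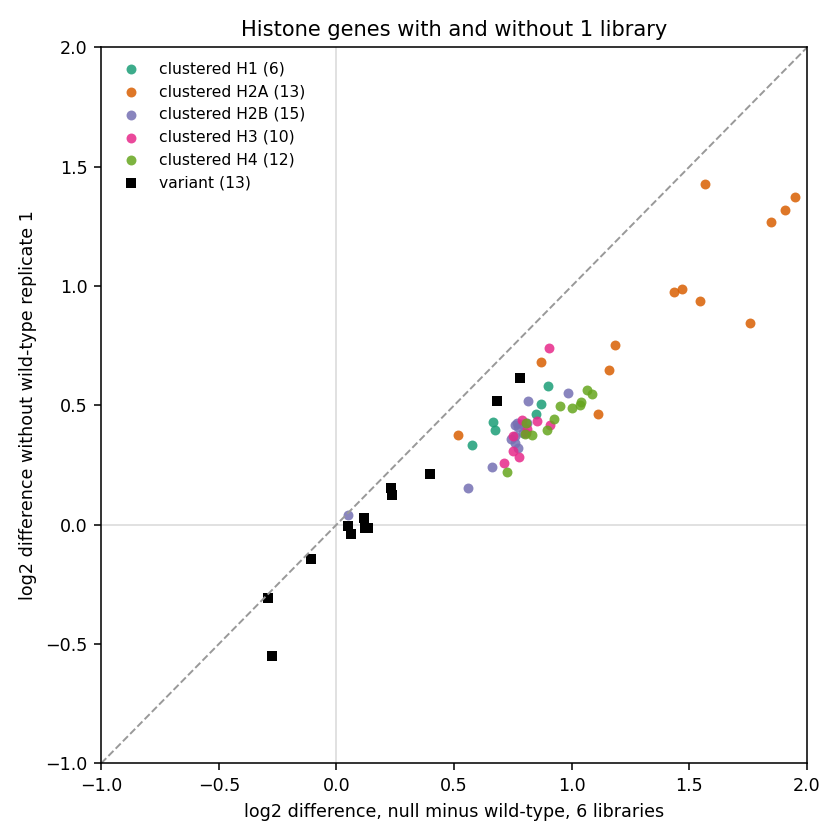
Log2 fold change of the 69 tested histone genes other than *Hist1h4m*, from all 6 libraries (horizontal axis) and without wild-type replicate 1 (vertical axis), with 1 point per gene coloured by histone and black squares for the variant genes. The dashed line marks equal values, and the clustered genes lie below it and above 0, with a median of 0.82 on the horizontal and 0.43 on the vertical axis.

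The clustered genes are short, and short genes as a whole moved in the same direction. Of the 54 tested clustered genes with an annotated length, 45 were annotated at no more than 1272 bases. That is the limit of the shortest decile of all tested genes, set by the lengths used to recover reads. By those lengths others fell in the decile too, such as *Hist1h1d* (744 bases, annotated at 7425). In that decile, 46.6% of the 1354 genes were called higher and 1.62% lower, with 87.7% above 0 and a median log2 fold change of 0.54. The clustered genes also had a median GC content of 56.9%, against 49.3% for all tested genes. With length and GC trends taken out of every library, 3 of 54 clustered genes were called higher, against 1.88% of all genes tested, and the median log2 fold change was 0.18. The 3 genes were H2A genes (*Hist1h2af*, *Hist1h2ah* and *Hist1h2an*), which were picked out after their values were seen. Beyond this fit, the part of gene length and GC content in the difference was not tested.

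Most RNAs that end without a poly(A) tail were also lowest in wild-type library 1. Of 17 such RNAs listed, 14 were in the table and 13 were tested, with 8 called higher and 0 lower, against 14.7% and 12% of all tested genes, and a median log2 fold change of 0.85. Wild-type library 1 was lowest for 11 of the 13, against 29.5% of all tested genes. Wild-type library 2 was at or above the lowest *Pax9*-null library for 2 of the 13. It was so for 22 of the 56 clustered histone genes and for 9242 of all 13547 tested genes. The largest called changes were those of *Rn7s1* (1.57), an RNA of the signal recognition particle, and of the Y RNAs *Rny1* (1.56) and *Rny3* (1.52). *Rny3* was at 6.19, 5.82 and 5.90 log2 RPKM in the *Pax9*-null libraries and at 4.18, 4.86 and 4.31 in the wild-type libraries, so that all 3 wild-type libraries were well below. Without wild-type library 1, 7 of the 13 were called higher, against 8.13% of all tested genes. With length and GC trends removed, 1 of the 13 was called higher and 3 lower, with a median log2 fold change of 0.0029. In that fit 254 of all 13516 genes tested were called higher and 343 lower. *Rpph1*, the RNA of RNase P, was at 10.79, 10.78 and 10.94 log2 RPKM in the *Pax9*-null libraries and at 9.16, 10.53 and 10.12 in the wild-type libraries. *Rmrp*, the RNA of RNase MRP, gave 7.89, 7.92 and 8.05 against 6.25, 7.82 and 7.25. *Rpph1* and *Rmrp* had the library order of the clustered histone genes, with wild-type library 1 lowest and wild-type library 2 next to the *Pax9*-null libraries. *Malat1*, a long nuclear RNA whose end is cut by RNase P, was flat at 6.57 to 6.93 in the *Pax9*-null and 6.78 to 6.93 in the wild-type libraries. The part of RNA end type or RNA recovery in the histone difference was not tested.

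**Figure D3:**
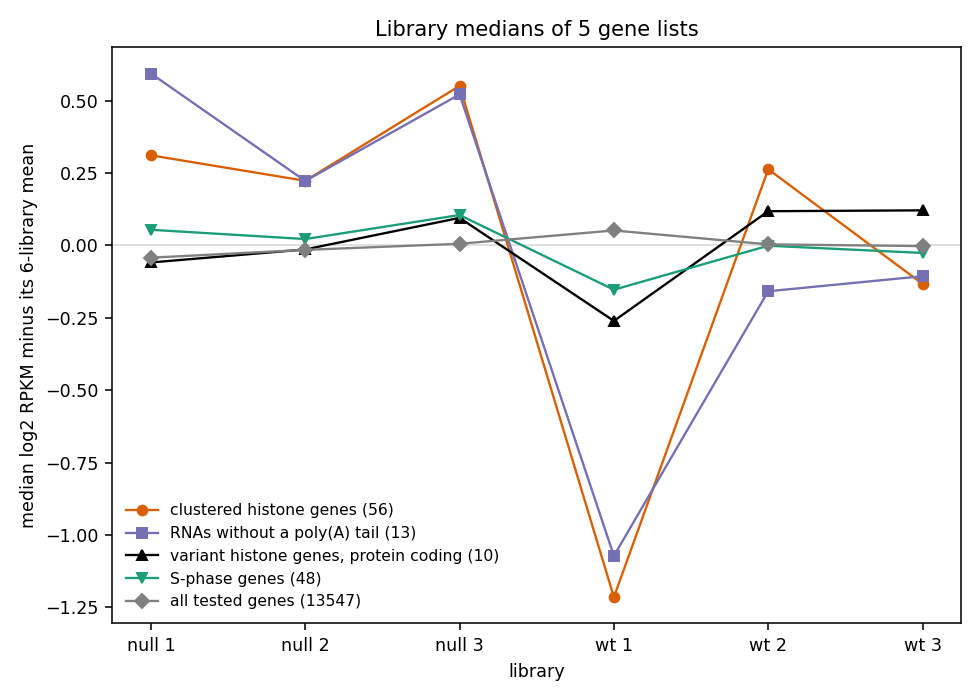
Median log2 RPKM of 5 gene lists in each library (horizontal axis), each minus its own mean over the 6 libraries (vertical axis), with the number of tested genes in brackets. The clustered histone genes and the RNAs without a poly(A) tail fall to -1.22 and -1.07 in wild-type library 1, where the S-phase genes are at -0.15 and all tested genes at 0.05. In wild-type library 2 the clustered genes are at 0.26, within the *Pax9*-null libraries, and the RNAs without a poly(A) tail at -0.16, below them.

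Of the 7 lists of cell type markers, the endothelial one set wild-type library 1 apart. Its 5 markers summed to 82.6 RPKM in wild-type library 1 and to between 39.8 and 53.9 in the other 5 libraries. All 5 were higher in wild-type library 1 than in wild-type library 2, by a median of 0.73 on the log2 scale. Of the 5, 1 (*Cdh5*) was called lower in the *Pax9*-null libraries, against 12% of all tested genes. The median log2 fold change of the 5 was -0.46. It was -0.18 without wild-type library 1 and -0.23 with length and GC trends removed, and 0 were called in either fit. The part of the endothelial difference in the histone values was not tested. The 9 erythroid markers, all of which passed the filter, summed to 4969, 2670 and 4514 RPKM in the *Pax9*-null libraries and to between 2422 and 2534 in the wild-type libraries. Of the 9, 1 was called higher, against 14.7% of all tested genes. The 10 cardiomyocyte markers, which also passed the filter, summed to 79.9 RPKM in wild-type library 3 and to between 1278 and 1673 in the other 5 libraries. In the sums of the other 4 lists (pharyngeal endoderm, neural crest, neural tube and pharyngeal mesoderm), wild-type library 1 lay inside the range of the other 5 libraries. Fewer cells of a type and less RNA per cell cannot be told apart in such tissue samples.

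*Hist1h4m* was the gene that prompted the choice of the family. It encodes H4 and lies at chr13:21811746-21812147 of GRCm38 on the plus strand, in a single exon. Its log2 RPKM was 6.44, 5.81 and 6.30 in the *Pax9*-null libraries and 4.02, 2.47 and 2.44 in the wild-type libraries. The groups did not overlap, and the means differed by 3.21, a 9.23-fold difference. These values rest on 404, 259 and 371 reads in the *Pax9*-null libraries and on 82, 27 and 27 in the wild-type libraries. The wild-type order was unlike that of the other clustered genes, as wild-type library 1 was here the highest of the 3.

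*Hist1h4m* has a near copy in *Hist1h4n*, an H4 gene at chr13:21831767-21832196 on the minus strand. Of the words of 50 bases in the *Hist1h4m* transcript, 89.8% also occurred in *Hist1h4n*, and 83.2% of those in *Hist1h4n* occurred in *Hist1h4m*. The authors kept only reads with 1 place of alignment, so that reads inside the shared words would be lost to both genes. *Hist1h4n* had 368, 446 and 564 reads in the *Pax9*-null libraries and 149, 526 and 330 in the wild-type libraries. Wild-type library 1 was its lowest, and wild-type library 2 lay within the range of the *Pax9*-null libraries. For 22 of the 56 tested clustered genes wild-type library 2 was at or above the lowest *Pax9*-null library, against 9242 of all 13547 tested genes. *Hist1h4n* was not called (log2 fold change 0.72, SE 0.41, adjusted *P* = 0.249).

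With the reads of both genes added, the *Pax9*-null libraries held 772, 705 and 935 reads and the wild-type libraries 231, 553 and 357. The sums did not overlap between the groups. The difference of the summed reads, scaled to library size, was 1.27 on the log2 scale, against 3.21 for *Hist1h4m* alone. The sum was made after the values had been seen. How the reads divide between the copies was not tested, and the value of *Hist1h4m* alone is uncertain for that reason.

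**Figure D4:**
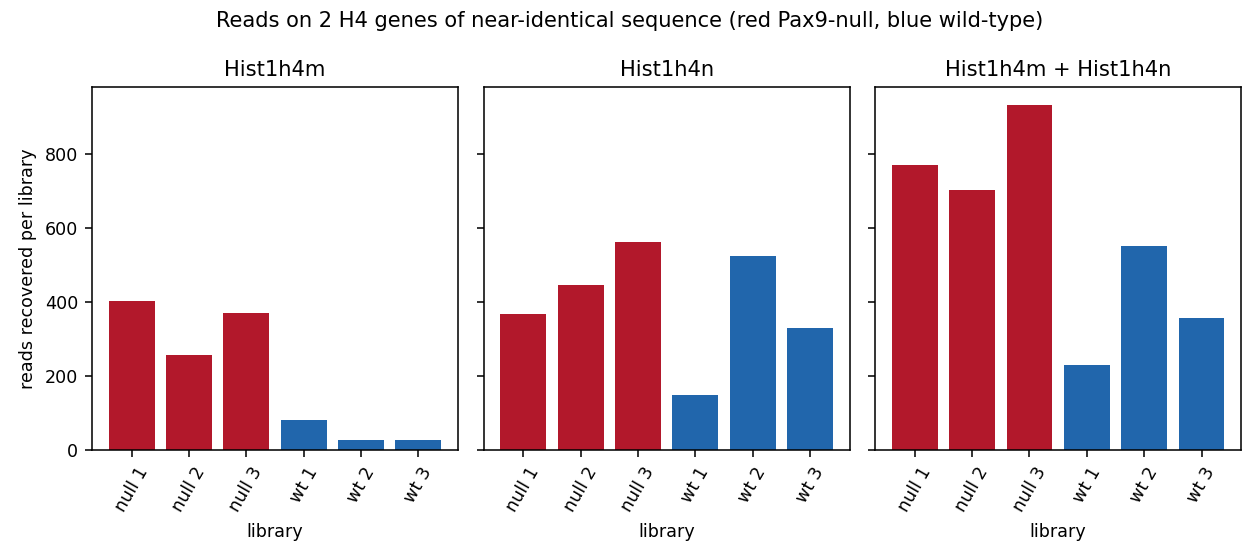
Reads recovered (vertical axis) on *Hist1h4m*, on *Hist1h4n* and on both in each of the 6 libraries (horizontal axis), with red bars for the *Pax9*-null and blue bars for the wild-type libraries. *Hist1h4m* falls from 259 to 404 reads in the *Pax9*-null libraries to between 27 and 82 in the wild-type libraries, whereas *Hist1h4n* has 526 reads in wild-type library 2, more than in the *Pax9*-null libraries 1 and 2.

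The linker histone genes moved together by a modest amount. All 6 clustered H1 genes were called higher, with log2 fold changes from 0.58 to 0.90, and their groups did not overlap. Of all tested genes, 14.7% were called higher and 21.8% were higher without overlap. *Hist1h1e* was at 9.94, 9.78 and 9.97 log2 RPKM in the *Pax9*-null libraries and at 8.36, 9.53 and 9.09 in the wild-type libraries (log2 fold change 0.90, SE 0.27, adjusted *P* = 0.0677). *Hist1h1t*, the testis H1 gene, was low at 3.14, 3.17 and 3.37 against 2.17, 2.86 and 2.92, and rose by 0.58 (SE 0.20, adjusted *P* = 0.0923). Without wild-type library 1, 2 of the 6 were called higher, against 8.13% of all tested genes, with a median log2 fold change of 0.45. With length and GC trends removed, 0 of the 6 were called, and the median was 0.056.

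The H2A genes had the larger fold changes. Of the 13 clustered H2A genes 11 were called higher, against 14.7% of all tested genes, and their median log2 fold change was 1.47. The 6 clustered genes with the largest called changes were H2A genes, namely *Hist1h2af* (1.95), *Hist1h2ah* (1.91), *Hist1h2ac* (1.85), *Hist1h2ag* (1.56), *Hist1h2ab* (1.54) and *Hist1h2an* (1.47). *Hist1h2af* was at 4.40, 4.56 and 5.20 log2 RPKM in the *Pax9*-null libraries and at 1.62, 3.39 and 3.30 in the wild-type libraries (SE 0.46, adjusted *P* = 0.0435). It had 97 to 171 reads against 15 to 51, and no overlap of the groups.

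These H2A values rest on few reads and on shared sequence. *Hist1h2ah* had 55, 65 and 111 reads in the *Pax9*-null libraries and 9, 41 and 24 in the wild-type libraries. *Hist1h2an* had 38, 33 and 57 against 8, 29 and 17. Words of 50 bases found in other genes made up 94% of *Hist1h2af*, 92.1% of *Hist1h2ah* and 85.8% of *Hist1h2an*. For *Hist1h2ac* the share was 14.1%, but over 2482 annotated bases, whereas its reads were recovered at a length of 476 bases. Its share is therefore not on the same footing as the others. *Hist2h2ab* in the Hist2 cluster was at 6.02, 5.77 and 5.86 against 4.64, 5.23 and 5.17, and had the lowest adjusted *P* of the clustered genes (log2 fold change 0.87, SE 0.16, adjusted *P* = 0.0306). Without wild-type library 1, 6 of the 13 H2A genes were called higher, against 8.13% of all tested genes, with a median of 0.94.

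The H2B genes were called higher at a share near that of all tested genes, though many had high levels. Of the 17 listed, 15 were tested and 2 (*Hist1h2bb* and *Hist1h2bg*) were called higher, against 14.7% of all tested genes. *Hist1h2bb* was at 9.67, 9.47 and 9.67 log2 RPKM in the *Pax9*-null libraries and at 8.20, 9.27 and 8.90 in the wild-type libraries (log2 fold change 0.82, SE 0.26, adjusted *P* = 0.0725). *Hist1h2bg* was at 8.28, 8.15 and 8.40 against 6.43, 7.98 and 7.47 (0.99, SE 0.34, adjusted *P* = 0.0906). *Hist1h2bm* and *Hist1h2bn*, likewise among the highest in level, gave 0.77 (SE 0.29, adjusted *P* = 0.108) and 0.76 (SE 0.31, adjusted *P* = 0.13).

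Among the H2B genes, *Hist2h2be* had the smallest log2 fold change of the clustered genes tested. It was at 1.64, 1.65 and 1.49 log2 RPKM in the *Pax9*-null libraries and at 1.52, 1.38 and 1.72 in the wild-type libraries, so that the groups overlapped (log2 fold change 0.051, SE 0.15, adjusted *P* = 0.83). It shared no word of 50 bases with another gene, no stem-loop of the pattern searched was found in it, and its annotated exons span 2620 bases. It was singled out after its values were seen. *Hist1h2bq* and *Hist1h2br* fell below the filter, with 15 to 24 and 12 to 20 reads in the *Pax9*-null libraries and at most 11 and 5 in the wild-type libraries. They share 97.3% and 88.7% of their words with each other and were not tested. The tested members nearest to the filter were *H3f3aos*, at a mean of -0.16 log2 RPKM, and *H1fx*.

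The H3 genes were alike in level and in change. The 9 genes of the Hist1 cluster lay between 5.49 and 8.57 log2 RPKM in every library, with log2 fold changes from 0.71 to 0.91. Of these genes, 1 was called higher, against 14.7% of all tested genes. That gene, *Hist1h3b*, was at 7.56, 7.42 and 7.66 in the *Pax9*-null libraries and at 6.06, 7.34 and 6.88 in the wild-type libraries (log2 fold change 0.79, SE 0.29, adjusted *P* = 0.0973). *Hist2h3c2* in the Hist2 cluster was lower, at 3.45, 2.68 and 3.44 against 1.96, 2.48 and 2.42, and was also called (0.90, SE 0.24, adjusted *P* = 0.0517).

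Of the 12 H4 genes other than *Hist1h4m*, 9 had an unadjusted *P* under 0.05 by limma. None of the 12 was called, against 26.7% of all tested genes. Their log2 fold changes ran from 0.72 to 1.08 with a median of 0.94. The smallest adjusted *P* was 0.103, for *Hist1h4b*, and the largest 0.249, for *Hist1h4n*. *Hist1h4d*, the highest H4 gene, was at 9.84, 9.79 and 10.06 log2 RPKM in the *Pax9*-null libraries and at 8.04, 9.66 and 9.14 in the wild-type libraries (log2 fold change 0.95, SE 0.37, adjusted *P* = 0.111). Wild-type library 1 was the lowest of the 6 for all 12 H4 genes, and *Pax9*-null library 3 the highest. Of all 13547 tested genes, 4003 were lowest in the former and 2804 highest in the latter. The wild-type libraries 1 and 2 differed by a median of 1.76 for these genes.

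The promoters differed between the kinds of histone gene. RefSeq promoters on GRCm38.p6, from 250 bases before to 50 after the start, were matched for 53 clustered and 9 variant genes. The motif CCAAT was present on either strand in all 41 matched promoters of H1, H2A, H2B and H3 genes and in 25% of those of H4 genes, against 37.9% of 27025 promoters of all genes. TATAA was present in 79.2% of the clustered and 11.1% of the variant promoters, against 25.5% of all. The letters AAACACA, part of a box known in H1 promoters, were in 5 of 6 H1 promoters and 7.14% of all. GGTCC was in 11 of 12 H4 promoters and 45.4% of all. The octamer ATTTGCAT was in 4 of 14 H2B and 6 of 13 H2A promoters and 1.75% of all. The motifs were chosen from textbook knowledge of these promoters, and a match is a description of the sequence.

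The 150 bases before the start are shown for an H1, an H2B and an H4 gene, with the motifs named above in capitals on either strand. They lie at chr13:23622559-23622708 (minus strand), chr13:23746584-23746733 (plus) and chr13:21811596-21811745 (plus).
*Hist1h1e*: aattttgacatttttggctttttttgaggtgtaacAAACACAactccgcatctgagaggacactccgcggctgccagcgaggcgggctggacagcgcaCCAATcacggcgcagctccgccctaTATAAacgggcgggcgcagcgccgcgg
*Hist1h2bb*: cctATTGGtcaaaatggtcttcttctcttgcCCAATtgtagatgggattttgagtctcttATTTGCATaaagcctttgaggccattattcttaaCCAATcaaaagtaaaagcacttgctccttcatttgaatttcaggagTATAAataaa
*Hist1h4m*: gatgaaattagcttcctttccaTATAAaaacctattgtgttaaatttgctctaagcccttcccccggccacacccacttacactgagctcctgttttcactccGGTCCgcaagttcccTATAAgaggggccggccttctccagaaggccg

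The variant genes were called at shares near those of all tested genes. Of the 13, all of them tested, 2 were called higher and 1 lower, against 14.7% and 12% of all tested genes, and their median log2 fold change was 0.12, or -0.031 after quantile normalization. The log2 fold change was above 0 for 10 of the 13, against 49.8% of all tested genes, and for 6 of the 13 without wild-type library 1. Wild-type library 1 was the lowest of the 6 for 9 of the 13, against 29.5% of all tested genes, and the wild-type libraries 2 and 1 differed by a median of 0.35. Both genes called higher were pseudogenes of *H3f3a*. At an unadjusted *P* under 0.05, limma gave 3 of the 13 higher and 1 lower. The gene called lower was *H2afy2*.

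*H2afy2* encodes macroH2A2, a large H2A variant of silent chromatin. It was at 6.28, 6.25 and 6.30 log2 RPKM in the *Pax9*-null libraries and at 6.54, 6.56 and 6.61 in the wild-type libraries. The groups did not overlap, and the gene fell by 0.29 on the log2 scale (SE 0.07, adjusted *P* = 0.0482). Without wild-type library 1 the log2 fold change was -0.31 (adjusted *P* = 0.0708), and with length and GC trends removed it was -0.27 (adjusted *P* = 0.096). The call was lost without *Pax9*-null library 1 (adjusted *P* = 0.177), without *Pax9*-null library 3 (0.128), without wild-type library 3 (0.125) and with a replicate block (0.144). Its exons overlap those of *Aifm2* on the other strand. *H2afy*, which encodes the related macroH2A1, was at 5.52, 5.65 and 5.60 against 5.63, 5.74 and 5.72 and was not called (-0.11, SE 0.08, adjusted *P* = 0.356).

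*H2afz*, the gene of H2A.Z at active promoters, was the highest of the variant genes. It was at 8.21, 8.01 and 8.17 log2 RPKM in the *Pax9*-null libraries and at 7.35, 8.02 and 7.82 in the wild-type libraries (log2 fold change 0.40, SE 0.17, adjusted *P* = 0.141). Wild-type library 2 lay inside the range of the *Pax9*-null libraries, and without wild-type library 1 the change was 0.21. *H2afv*, which encodes the second H2A.Z protein, was at 6.34 to 6.56 against 6.01 to 6.50 (0.14, adjusted *P* = 0.513). *H2afx*, the variant gene with a stem-loop, was at 6.23 to 6.51 against 6.10 to 6.45 (0.06, SE 0.12, adjusted *P* = 0.735). *H2afj* was low, at 1.95 to 2.31 against 1.70 to 2.10 (0.24, adjusted *P* = 0.319).

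*H3f3b* and *H3f3a* both encode H3.3, the replacement H3. *H3f3b* was at 7.96, 7.85 and 7.85 log2 RPKM in the *Pax9*-null libraries and at 7.50, 7.78 and 7.69 in the wild-type libraries, without overlap, and was not called (log2 fold change 0.23, SE 0.11, adjusted *P* = 0.163). *H3f3a* was at 5.88 to 5.99 against 5.53 to 5.96 (0.12, adjusted *P* = 0.511). Its antisense RNA *H3f3aos* was at -0.54 to 0.16 against -0.30 to 0.05 (0.05, adjusted *P* = 0.91). *H3f3a* and *H3f3aos* overlap in their exons, and the counting, at default parameters, is not stated to use strand. How reads in the overlap were counted was not tested.

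The pseudogene *H3f3a-ps1* was at 5.59, 5.10 and 5.49 log2 RPKM in the *Pax9*-null libraries and at 4.38, 4.89 and 4.85 in the wild-type libraries (log2 fold change 0.68, SE 0.17, adjusted *P* = 0.0487). *H3f3a-ps2* was at 2.03, 1.61 and 2.28 against 0.87, 1.70 and 1.03, with overlapping groups (0.78, SE 0.26, adjusted *P* = 0.0833). Both are about as short as the clustered genes, at 410 and 411 bases, and share 54.3% and 82% of their words with other genes. With length and GC trends removed their changes were -0.26 and -0.12, and neither was called.

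Of the linker variants, *H1f0*, the H1 of differentiated and resting cells, was at 7.25, 7.21 and 7.35 log2 RPKM in the *Pax9*-null libraries and at 6.97, 7.21 and 7.27 in the wild-type libraries (log2 fold change 0.12, SE 0.11, adjusted *P* = 0.452). *H1fx* spread more widely, at 1.16, 0.48 and 1.70 against 0.83, 1.72 and 1.60 (-0.27, SE 0.35, adjusted *P* = 0.609). The groups overlapped for both.

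**Figure D5:**
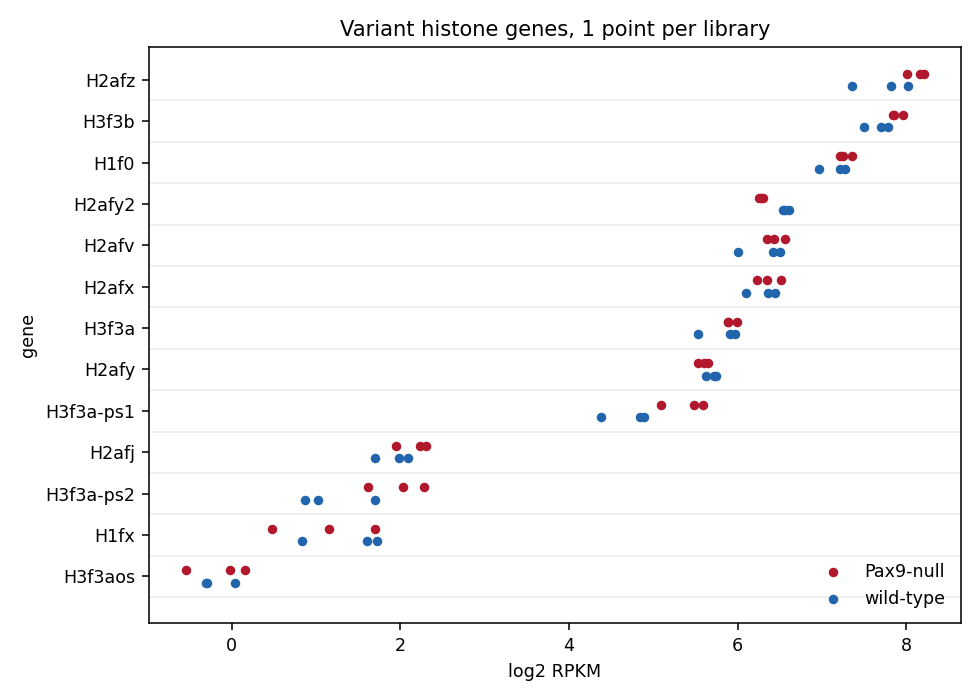
Log2 RPKM (horizontal axis) of the 13 variant genes (vertical axis, ordered by mean level), with 1 point per library, red for *Pax9*-null and blue for wild-type. The groups separate for *H2afy2*, lower in the *Pax9*-null libraries, and for *H3f3a-ps1* and *H3f3b*, higher in them.

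The clustered genes were also divided by sequence features and by cluster. The 38 genes in which a stem-loop was found had a median log2 fold change of 0.85, with 15 called higher. The 16 tested genes with an annotated transcript in which none was found had 0.78, with 6 called. Some of these transcripts may end before a stem-loop or hold one outside the pattern searched. The split therefore also follows the reach of the annotation and of the pattern. The transcript of *Hist1h4k* is annotated at 312 bases, whereas the stem-loop of *Hist1h4d* starts at base 353. Genes that shared under 20% of their words with other genes had a median of 0.83, with 6 of 12 called, those that shared 20% to 60% had 0.815, with 7 of 23 called, and those that shared at least 60% had 0.90, with 8 of 19 called. The shares were taken over annotated transcripts. Some of these, such as those of *Hist1h2ac* and *Hist1h1d* in the lowest group, are far longer than the length used to recover reads. By cluster, 17 of 47 tested genes of Hist1 were called, 3 of 5 of Hist2, 1 of 3 of Hist3 and none of the 1 of Hist4, by limma. Beside these counts, 14.7% of all tested genes and 46.6% of those in the shortest decile were called higher.

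The genes that make and handle histone mRNA included calls in both directions. Of 30 genes for histone mRNA processing and polyadenylation, 4 were called higher and 6 lower, against 14.7% and 12% of all tested genes, with a median log2 fold change of -0.0028. *Slbp*, whose product binds the stem-loop, was at 5.18, 5.0 and 5.15 log2 RPKM in the *Pax9*-null libraries and at 4.74, 4.94 and 4.89 in the wild-type libraries, and rose by 0.26 (SE 0.09, adjusted *P* = 0.0952). *Pabpn1*, a nuclear poly(A)-binding protein, rose by 0.74 (adjusted *P* = 0.0323). *Upf1*, which takes part in histone mRNA decay, fell by 0.76 (adjusted *P* = 0.0552), and the cleavage factor genes *Sympk* and *Cpsf1* fell by 0.75 (adjusted *P* = 0.0374) and by 0.60 (adjusted *P* = 0.0227). *Slbp* was not called without wild-type library 1 (0.20, adjusted *P* = 0.203).

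Histone chaperones carry histones to DNA. Of 33 chaperone genes, 3 were called higher and 5 lower, against 14.7% and 12% of all tested genes, with a median of -0.071. *Asf1a*, an H3-H4 chaperone, rose by 0.55 (adjusted *P* = 0.042). *Chaf1a*, the large subunit of the replication-coupled assembly factor, fell by 0.64 (adjusted *P* = 0.0422). *Cabin1*, of the HIRA complex for H3.3, fell by 0.68 (adjusted *P* = 0.042) and the elongation factor gene *Supt6* by 0.87 (adjusted *P* = 0.0463).

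The S-phase genes also included calls in both directions. Of 48 genes for replication and S-phase entry, 11 were called higher and 7 lower, against 26.7% of all tested genes called in either direction, and their median log2 fold change was -0.0092. *Rpa3*, a subunit of the single-strand binding protein, rose by 0.79 (adjusted *P* = 0.042) and *Ccne2*, a cyclin of S-phase entry, by 0.58 (adjusted *P* = 0.0639). *Clspn*, a checkpoint adaptor, fell by 0.68 (adjusted *P* = 0.0538) and *Rfc1*, the large clamp loader subunit, by 0.66 (adjusted *P* = 0.0898). The median of the list lay between 5.12 and 5.37 log2 RPKM in all 6 libraries and was lowest in wild-type library 1, where the clustered histone genes were also lowest. Without wild-type library 1, 4 of the 48 S-phase genes were called higher and 2 lower, near the shares of all tested genes (1102 and 697 of 13547).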

How the data were processed

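RNA-seq was made of pharyngeal tissue from 3 *Pax9*-null and 3 wild-type E9.5 embryos. The authors trimmed reads (Trimmomatic 0.32), kept reads that were unique in alignment and not duplicated, brought the libraries to a like depth by sub-sampling, aligned them to GRCm38 (STAR 2.5.1a, per the labels) and counted them on Ensembl genes (featureCounts 1.5.1, default parameters). They deposited log2 RPKM values for 14647 genes in 6 libraries, and the function that made these is not given in the sources used here.

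Members were rows whose symbol starts with Hist1h to Hist4h, H2af, H3f3 or H1f. The members, the gene lists and the tests were chosen with earlier results of these data known. The genes named with values were, by rule, *Hist1h4m*, the 8 clustered genes of highest mean log2 RPKM, the 6 called with the largest change, all variant genes, the members next to the filter, *Slbp* and up to 4 called genes of each further list. Others were named after their values were seen. Differential expression was tested with limma 3.58.1 in R 4.3.3 (lmFit, then eBayes with its trend option), two-sided, with no covariate, on the 13547 genes that averaged 0.5 RPKM or more. Adjustment was by Benjamini-Hochberg over all of these genes. The log2 values as deposited stood in for the counts of the study's limma-voom fit, and the fit was tested on simulated data. The replicates are separate embryos, and their numbers are not stated to pair the groups, so they were treated as unpaired. Same-numbered libraries had correlations of deviations from the group means of -0.02, -0.173 and 0.26. With 3 libraries per group, these cannot decide whether the numbers pair the groups. No column was left without a sample (0 columns).

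Reads were recovered from log2 RPKM with a prior count of 0.5. At GENCODE M21 gene lengths 82.8% of values were whole within 0.05 reads, and for the other genes the smallest length that gave whole reads within 0.02 was taken. Recovered reads are an estimate. They came to 11868672, 11660829 and 11754101 in the *Pax9*-null libraries 1 to 3 and to 12680406, 12245023 and 12097915 in the wild-type libraries 1 to 3, and low read numbers limit the precision of the lowest H2A genes. Gene positions, transcripts and overlaps were taken from GENCODE M21 on GRCm38, which lacked 25 of the identifiers, among them those of *Hist1h2bm* and *Hist1h2bh*. Promoters were taken from RefSeq on GRCm38.p6 and matched by symbol or older symbol and position. A share of words is the share of 50-base words of a gene's annotated transcripts that also occur, on either strand, in those of another gene. Genes that overlap it were included. Alternatives covered the pseudocount (1 and 0.1), the filter (none, or a mean of at least 5 RPKM), scaling, the variance model, library weights, a replicate block, the threshold (0.05), the trends with length and GC content (loess, span 0.3) and leaving out each library.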

Additional observations from a re-analysis of the deposited data

How the results depend on the processing

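The count of clustered genes called higher (21) was the least stable value. It was 11 after quantile normalization, 11 without a variance trend, 3 with length and GC trends removed and 2 at an adjusted *P* of at most 0.05, and it ran from 0 to 54 when each library was left out. No clustered gene was called lower in any fit. The median log2 fold change of the clustered genes ran from 0.43 to 1.14 over the fits that left out 1 library, and was 0.18 with length and GC trends removed. The median of the variant genes ran from -0.0067 to 0.19, and was -0.031 after quantile normalization and -0.015 with length and GC trends removed.

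The replicate numbers are not stated to pair the embryos. With a replicate block 11 clustered genes were called higher, 1 variant gene higher and 0 lower, and the block gave 1377 calls over all genes, 4 processing, 4 chaperone and 3 S-phase genes. The 3611 calls over all genes (1990 higher and 1621 lower) became 597 with length and GC trends removed (254 and 343), 1335 at 0.05, and 175 to 3578 without 1 library. After quantile normalization the split was 1433 higher to 1742 lower.

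Variant genes called higher (2) were 1 at a mean of at least 5 RPKM, 1 without a variance trend, 0 with length and GC trends removed, 1 at 0.05, and 0 to 3 without 1 library. Variant genes called lower (1) were 2 after quantile normalization and 0 to 1 without 1 library. The processing genes called (10) were 6 without a variance trend, 3 with length and GC trends removed, 5 at 0.05 and 0 to 8 without 1 library. The chaperone genes called (8) were 1, 5 and 0 to 10 under the latter 3 changes. The S-phase genes called (18) were 8 without a variance trend, then 1, 3 and 0 to 17.

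Of 691 refits of the 41 named genes other than *Hist1h4m*, 523 kept their direction and side of the threshold, 136 lost the call, 7 gained it and 25 changed sign. With length and GC trends removed, the sign changed for *Hist1h1d* (-0.024), *Hist1h4d* (-0.032), *Hist1h2bn* (-0.010), *H3f3a-ps1* (-0.26), *H3f3a-ps2* (-0.12), *H2afy* (0.15), *H2afv* (-0.16), *H3f3a* (-0.080), *H2afx* (-0.015) and *Rpa3* (-0.013). After quantile normalization it changed for *H3f3b* (-0.053), *H1f0* (-0.14), *H2afv* (-0.031), *H3f3a* (-0.020) and *H2afx* (-0.11), and with library weights for *H2afx* (-0.016). Without 1 library, the ranges crossed 0 for *H1fx* (-0.57 to 0.046), *H3f3aos* (-0.10 to 0.25), *H2afv* (-0.015 to 0.23), *H3f3a* (-0.016 to 0.20) and *H2afx* (-0.039 to 0.14). The causes were not tested, except that leaving out a library also lowers the number of samples.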

Other observations

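The Hist1 cluster spans 21715763 to 23764406 on chromosome 13 of GRCm38 and holds other genes between the histone genes. Of the non-histone genes in that span, 9 were in the table and 8 were tested. Of these 8, limma called 0 higher and 0 lower (0 and 0 also at an unadjusted *P* under 0.05). The median log2 fold change was 0.045, and the wild-type libraries 2 and 1 differed by a median of -0.025. *Abt1*, which encodes a nucleolar protein, was at 4.57, 4.49 and 4.85 log2 RPKM in the *Pax9*-null libraries and at 4.53, 4.54 and 4.51 in the wild-type libraries (log2 fold change 0.11, adjusted *P* = 0.469). *Zfp184*, a zinc finger gene, was at 3.62, 3.57 and 3.68 against 3.72, 3.61 and 3.62 (-0.02, adjusted *P* = 0.862). Both are longer than most of the histone genes, at 4456 and 3513 bases. Wild-type library 1 was the lowest of the 6 for the 3 shortest of the 8. *Mir1983*, annotated at 132 bases, had its lowest value in wild-type library 1 (4.86, against 5.69 to 5.83 in the other wild-type libraries and 5.70 to 6.46 in the *Pax9*-null libraries) and was not called (0.54, adjusted *P* = 0.218). The long non-coding RNAs *C230035I16Rik* (917 bases) and *Gm11335* (1080 bases) were at -0.145 and 1.33 in wild-type library 1, against 0.45 and 2.23 in wild-type library 2, and were not called either. These genes were looked up after the histone values were seen.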
